A study of Mus musculus with 8 samples.

Results

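The genes of DNA replication licensing and helicase assembly followed here through single mouse islet cells were Mcm2, Mcm3, Mcm4, Mcm5, Mcm6, Mcm7, Mcm10, Cdc6, Cdt1 and Gins2. They were chosen by name, and all 10 were present among the 24421 genes of every count table. The samples were islet cells of male C57BL/6J mice of 8 weeks. In 4 samples the mice had undergone partial pancreatectomy (PPTx), in which about 50% of the pancreas was resected, 2 days before the islets were taken, and in 4 control samples the mice of the same age had no operation at all, so that surgery and loss of tissue cannot be told apart. Each sample pooled the islets of 1 to 3 mice, and nothing in the labels names the mice, so the p-values below measure the spread between samples. The authors counted unique molecular identifiers (UMIs, 1 per captured transcript) per gene and cell, after capture in ddSEQ droplets, while the library kit is given differently by the methods (a kit for ddSEQ) and by the labels (a Chromium kit).

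Cells outside the limits of 100 to 3000 detected genes or 100 to 20000 UMIs were set aside, which left 1232 of 1240 cells, 520 from control and 712 from PPTx mice, and 227439 to 1580152 UMIs per sample. A cell was assigned to the hormone with the most UMIs. Insulin (Ins1 and Ins2) led in 957 cells, called β-cells here, and another hormone led in 275 cells, of which 137 were led by Ppy, 121 by Gcg, 16 by Sst and 1 by Ghrl. All 7 β-cell markers of the list used were present in the β-cells. A β-cell with at least 1 UMI of Top2a (topoisomerase of S to M phase) or Cdk1 (the mitotic kinase) was called positive, which held for 48 β-cells, and the remaining 909 β-cells were called negative. Of the cells led by another hormone, 3 carried a UMI of Top2a or Cdk1. The positive class was thin in control samples, with 1, 1, 4 and 4 cells against 7, 17, 9 and 5 cells in PPTx samples, so the levels of control replicates 1 and 2 each rest on 1 cell. A single barcode was present in more than 1 sample, cells were therefore named by sample and barcode, and doublets were not removed. Levels are given as CPM, the standard scaling of the UMIs of a gene to all UMIs of the summed cells of a class in a sample.

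Origins of replication are licensed in G1 phase, when Cdc6 and Cdt1, together with the origin recognition complex, load the ring of Mcm2 to Mcm7 onto DNA. Mcm2 to Mcm7 form the core of the replicative helicase. At the start of S phase the ring is activated by joining Cdc45 and the GINS complex, of which Gins2 is a subunit, and Mcm10 takes part in this firing step. Adult β-cells are mostly quiescent, and licensing proteins are widely used as signs of cells that have left quiescence. The E2F transcription factors are known to drive many genes of S-phase entry.

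Promoter windows of 8 of the 10 members, 250 bases before to 50 bases after a RefSeq start on GRCm38.p6 (the build called mm10 in the processing notes), were searched for 4 words of 8 letters known as E2F sites, TTTCCCGC, TTTGGCGC, TTTCGCGC and TTTGCCGC, on both strands and with overlaps counted. At least 1 of them was present in the windows of 6 of the 8 members (Mcm3, Mcm5, Mcm6, Mcm7, Cdc6 and Cdt1), whereas 2.26% of all 32851 windows in the reference held one. Singly, the words were present in 1.07%, 0.514%, 0.323% and 0.441% of all windows, in the order given. The TTTGAA word known from G2/M promoters was present in the Mcm2 window alone among the members, at position -70, and in 17.9% of all windows. The Mcm6 window held 3 matches, with first letters at -110, -106 and -47 from the start, of which the first pair overlap on opposite strands, and Mcm5 held an overlapping pair at -153 and -149. These stretches are shown because Mcm3, Mcm5, Mcm6 and Mcm7 were called higher in positive β-cells, as described later, and Cdc6 and Cdt1 load the ring they form. Capitals mark the words, and GCGGGAAA is the first word read from the opposite strand. The stretches run 5′ to 3′ on the gene's strand and lie at chr1:128359706-128359905 (minus strand) for Mcm6, chr8:75109309-75109467 (plus) for Mcm5, chr1:20820265-20820294 (minus) for Mcm3, chr5:138172030-138172059 and chr5:138171849-138171878 (minus) for Mcm7, chr11:98908002-98908031 (plus) for Cdc6 and chr8:122568035-122568064 (plus) for Cdt1.
Mcm6: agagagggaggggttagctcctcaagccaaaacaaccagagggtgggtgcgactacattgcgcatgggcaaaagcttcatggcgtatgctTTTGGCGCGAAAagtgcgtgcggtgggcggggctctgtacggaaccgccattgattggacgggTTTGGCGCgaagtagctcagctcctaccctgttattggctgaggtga
Mcm5: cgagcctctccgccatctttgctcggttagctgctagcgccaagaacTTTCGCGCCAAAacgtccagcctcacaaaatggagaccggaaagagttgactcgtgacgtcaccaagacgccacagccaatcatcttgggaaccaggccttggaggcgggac
Mcm3: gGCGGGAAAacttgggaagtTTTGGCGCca
Mcm7, upstream: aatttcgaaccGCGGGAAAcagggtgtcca
Mcm7, downstream: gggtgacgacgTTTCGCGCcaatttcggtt
Cdc6: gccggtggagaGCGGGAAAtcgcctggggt
Cdt1: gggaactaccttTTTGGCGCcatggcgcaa
The Mcm3 and Cdt1 words and the downstream Mcm7 word lie after the start, so they fall in the transcribed part. The upstream Mcm7 and the Cdc6 words lie before the start used. They are still within the annotated extents of these genes (chr5:138164583-138172111 and chr11:98907709-98923942). A match is a description of the letters and not of binding.

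**Figure D1:**
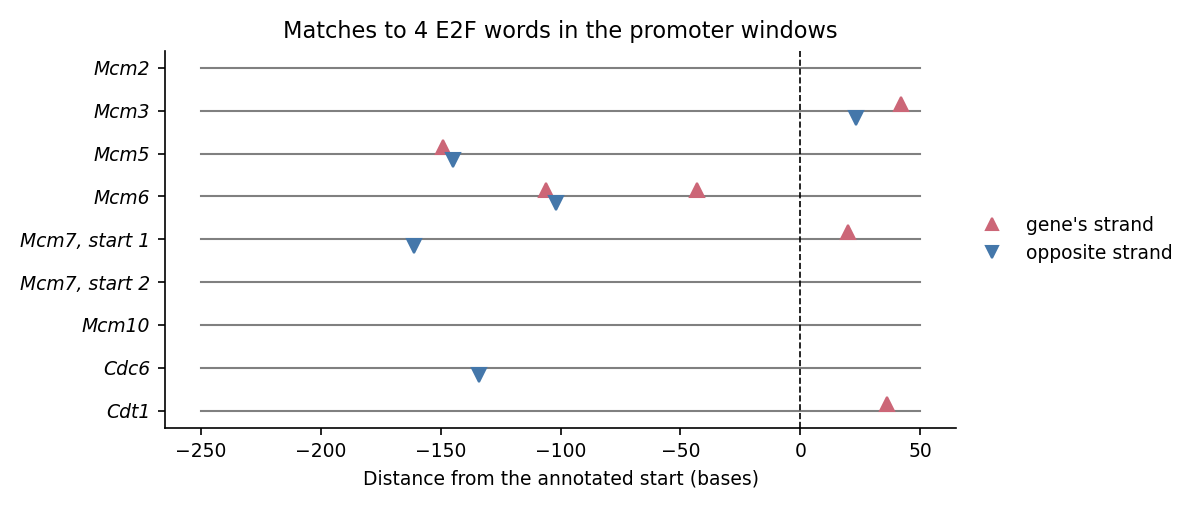
Matches to the E2F words by the distance of the word's middle from the annotated start in bases (x axis) for each of the 9 windows of 8 members (y axis, Mcm7 with 2 starts), where triangles pointing up are on the gene's strand and triangles pointing down on the opposite strand. Mcm2, Mcm10 and the second Mcm7 start hold none, and Mcm6 holds 3.

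The members were sparse. Over all kept cells Mcm6 had 178 UMIs in 110 cells, Mcm7 114, Mcm4 91, Mcm2 90, Mcm5 65, Mcm3 52, Cdt1 34, Gins2 29 and Cdc6 15 UMIs, and Mcm10 had 3 UMIs in 3 cells. No cell held more than 7 UMIs of 1 member. Genes with fewer than 10 UMIs in a comparison were not tested, so Mcm10 is given by its values alone. Reads of Mcm7 (chr5:138164583-138172111) and Gins2 (chr8:120581266-120589075) could be shared with the annotated neighbours Ap4m1 and Gse1, whose extents overlap theirs, since the use of strand in counting is not given in the sources used here.

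The first comparison asked how the licensing genes differ between β-cells with and without transcripts of the later cell cycle. In positive β-cells 7 of 9 tested members were higher than in negative β-cells of the same samples, namely Mcm2, Mcm3, Mcm4, Mcm5, Mcm6, Mcm7 and Gins2, where 3.17% of the 10697 genes tested were called higher at an adjusted p of 0.05 (edgeR's quasi-likelihood test on UMI sums per sample and class, with the sample as a block). Each of the 9 had at least 10 UMIs in the negative cells alone, so none entered the test through the positive cells only. The log2 fold changes of the 9 were all positive, with a median of 2.69, against a median of 0.06 over all genes tested. Over all genes 339 were called higher and 27 lower, which became 215 and 639 with TMM factors over all tested genes, where 7 members were called higher as well.

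Among the ring subunits, Mcm3 differed most. Its level in positive β-cells was 0, 452, 21.8 and 0 CPM in control and 29.6, 127, 74.1 and 217 CPM in PPTx samples. In negative β-cells it was 0, 0, 3.27 and 0 CPM in control and 2.79, 8.42, 1.14 and 7.55 CPM in PPTx samples. Mcm3 was thus higher in the positive cells of 6 samples and absent from both classes in the others, and the 452 CPM of control replicate 2 are 3 UMIs of 1 cell. The log2 fold change of Mcm3 was 4.39 (SE 0.55, adjusted p = 5.08e-13).

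Mcm6, the most abundant member, was at 0, 0, 87.2 and 39.7 CPM in positive cells of control and at 148, 137, 212 and 0 CPM in those of PPTx samples. Its negative cells held 2.15 to 9.80 CPM in control and 18.9 to 36.2 CPM in PPTx. Mcm6 was higher in positive cells in 5 of 8 samples and at 0 in the remaining samples, whose positive classes hold 1, 1 and 5 cells. The log2 fold change was 2.48 (SE 0.35, adjusted p = 2.47e-10).

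Mcm2 showed 0 UMIs in the positive cells of all 4 control samples, out of 79812 UMIs, and 29.6, 127, 63.6 and 109 CPM in those of PPTx samples. Its log2 fold change between positive and negative cells was 2.25 (SE 0.50, adjusted p = 0.000345), but without PPTx replicate 2, which holds 17 of the 48 positive cells, it was 1.80 with an adjusted p of 0.233. Mcm4 had UMIs in the positive cells of 7 of 8 samples, from 0 to 151 CPM with a median of 53.8 CPM, and its log2 fold change was 2.69 (SE 0.49, adjusted p = 3.54e-06). Mcm5 ranged from 0 to 301 CPM with a median of 49.4 CPM and its log2 fold change was 3.16 (SE 0.53, adjusted p = 3.09e-07). Mcm7 ranged from 0 to 217 CPM with a median of 70.7 CPM and its log2 fold change was 3.17 (SE 0.43, adjusted p = 6.27e-11).

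Of the factors around the ring, Gins2 was detected in positive cells of 6 samples at 14.8 to 151 CPM, with a log2 fold change of 3.26 (SE 0.88, adjusted p = 0.00904). Without PPTx replicate 3 its log2 fold change was 2.98 with an adjusted p of 0.114. The loading factors did not pass the test. Cdt1 was at 29.6 and 84.7 CPM in the positive cells of PPTx replicates 1 and 3 and at 0 in the other six samples, with a log2 fold change of 2.35 (SE 0.79, adjusted p = 0.0769), which became 0.24 without PPTx replicate 3. Cdt1 was called without PPTx replicate 2 (2.94, adjusted p = 0.0263), with all deposited cells (adjusted p = 0.0231) and with at least 2 UMIs required of a positive cell (adjusted p = 0.0416). Cdc6 had 5 UMIs in the 48 positive and 10 UMIs in the 909 negative cells, with a log2 fold change of 2.52 (SE 1.18, adjusted p = 0.376). Mcm10 had 1 UMI in positive and 2 UMIs in negative β-cells, a ratio of 8.52 per UMI sequenced with a counting interval of 0.144 to 164. By sample, 4 of the 10 members (Mcm3, Mcm4, Mcm5 and Gins2) were higher in positive cells in at least 6 of 8 samples, a pattern shown by 5.01% of all genes tested.

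Pooled over samples, the 10 members together were at 583 CPM in positive and 63.5 CPM in negative β-cells, a ratio of 9.18 (95% counting interval 7.72 to 10.9). Immune transcripts were present in 1 of the 48 positive cells and fibroblast transcripts also in 1, with 18 and 48 UMIs of their lists, Lyz2 and Col1a2 were at 0, and 4 of 5 endothelial markers were at 0. Ductal transcripts were present in 31 of the 48 cells with 59 UMIs, Krt19 and Sox9 being at 0, and acinar transcripts in 8. The α-cell list was at 603 to 1546 CPM in control and 1899 to 21133 CPM in PPTx positive cells, against 1652 to 2644 CPM and 1732 to 2620 CPM in negative cells, and the part of these lists in the result was not tested. Leaving out the 2 positive and 11 negative cells with at least 5 immune, endothelial or fibroblast UMIs again gave 7 members called, and cells with ductal, acinar or α-cell transcripts were not left out. When each cell was thinned to 2000 UMIs, 2 of the 6 members that could still be tested were called. The cells kept the positive and negative classes set from all their UMIs, so thinning did not equalise the depth at which the classes were made.

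**Figure D2:**
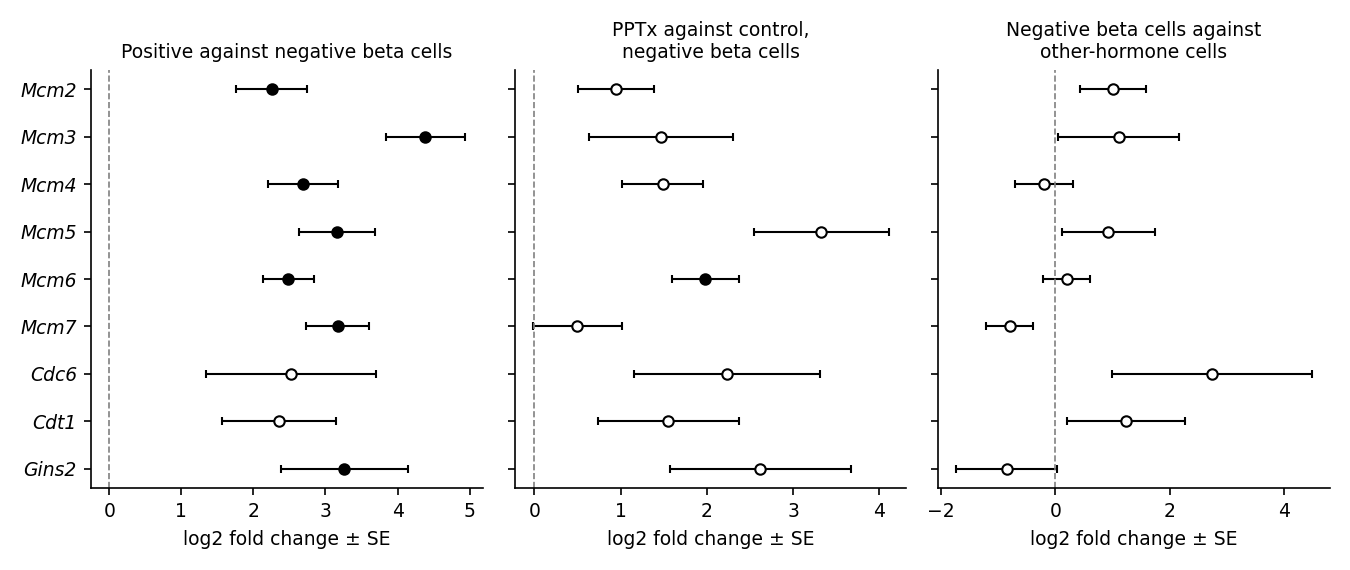
Log2 fold change with its SE (x axis) of the 9 tested members (y axis) for positive against negative β-cells, PPTx against control in negative β-cells, and negative β-cells against cells led by another hormone. Filled points have an adjusted p under 0.05 and open points do not: 7 are filled in the first panel, Mcm6 alone in the second and none in the third.

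Within the positive class the members varied from cell to cell. Of the 48 cells, 14 had no member UMI, 25 had at least 3, and the highest total was 19. The subunits Mcm2 to Mcm7 were often found together: 21 of 48 positive cells held at least 3 different subunits (43.8%), against 23 of 909 negative β-cells (2.53%) and 1 of 275 cells led by another hormone (0.364%). Only 1 positive and 1 negative cell held all 6.

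The positive cells were also described by 14 G2/M genes such as Ube2c, Mki67 and Birc5. In the 21 positive cells with 0 or 1 G2/M UMIs, which came from 5 samples and included 1 control cell, the members stood at 741 CPM, and in the 27 cells with 2 or more, from 8 samples and with 9 control cells, at 449 CPM. Cdt1, whose protein acts before S phase, had 8 UMIs in the former cells and 2 UMIs in the latter, which hold 163390 and 191673 UMIs in all. Mcm2 was at 85.7 and 41.7 CPM, Mcm3 at 116 and 52.2 CPM, and Mcm6 at 177 and 99.1 CPM, whereas Mcm5 was at 67.3 and 67.8 CPM and Mcm7 at 97.9 and 88.7 CPM. Fork genes such as Pcna were at 1132 and 1023 CPM in the same cells. These values pool cells of unequal samples and were not tested.

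Related gene lists gave the surroundings of this difference. Of 25 further licensing and firing genes 22 were tested and 9 were called higher in positive β-cells, and none lower. Of the 17 with at least 10 UMIs in negative cells alone 7 were called, namely Mcm8 (3.10), Cdc45 (3.07), Ccne2 (2.87), Donson (2.86), Gmnn (2.80), the inhibitor of Cdt1, Topbp1 (2.71) and Orc6 (1.87), each on the log2 scale. Dbf4 (4.79, SE 1.28, adjusted p = 0.00766), the activator of the Cdc7 kinase, and Ccne1 (4.15, SE 0.94, adjusted p = 0.000596), the cyclin E of S-phase entry, had 4 and 7 UMIs in negative cells and reached the test through the positive cells. All 11 tested of 12 fork and nucleotide genes, each with at least 10 UMIs in negative cells alone, were called higher, with a median of 3.35, led by Rrm2 (3.93), Rfc4 (3.74) and Rrm1 (3.59). Of 7 E2F genes tested, E2f8 (5.36) and E2f1 (2.25) were called higher, E2f8 with 1 UMI in negative cells. The 13 tested G2/M genes were called higher, among them Ube2c (7.67) and Birc5 (7.47), but only Cenpa (4.75) had at least 10 UMIs in negative cells, and the other 12, with 1 to 8, reached the test through the positive cells. Top2a and Cdk1, which defined the classes, are in none of these lists.

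The second comparison asked whether PPTx changed the members in β-cells. The share of β-cells with a Top2a or Cdk1 UMI was 1.82%, 1.28%, 3.25% and 3.33% in control and 6.93%, 7.11%, 8.65% and 3.65% in PPTx samples, without overlap. The means were 2.42% ± 1.03 (SD, n = 4) and 6.59% ± 2.11 (SD, n = 4), and the difference of 4.17 percentage points had a two-sided exact permutation p of 0.0286, the smallest that 4 against 4 samples allow. With every cell thinned to 2000 UMIs the difference was 0.824 points (exact permutation p = 0.4), and with at least 2 UMIs required it was 1.21 points (exact permutation p = 0.286).

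Over all β-cells only Mcm6 was called for PPTx against control, where 0.028% of 10697 genes were called higher. Mcm2, Mcm4, Mcm6 and Mcm7 had at least 10 UMIs in control β-cells alone, whereas Mcm3, Mcm5, Cdc6, Cdt1 and Gins2 had 2 to 9 there and reached the test through the PPTx samples, so the positive sign of their fitted differences is no support. Mcm6 was at 4.99, 2.12, 12.6 and 3.45 CPM in control and at 37.0, 43.6, 42.1 and 18.2 CPM in PPTx samples, with a log2 fold change of 2.07 (SE 0.37, adjusted p = 0.0181). It was not called after thinning to 2000 UMIs (2.64, adjusted p = 0.169) or without control replicates 1, 2 or 4 or PPTx replicates 1 or 2 (adjusted p of 0.0620 to 0.171), and without control replicate 3 it was 3.20 (adjusted p = 0.00202). The 3 genes called higher and 8 lower became 18 and 3 with library size alone. Mcm4 (1.64, SE 0.39, adjusted p = 0.0871) and Mcm5 (1.85, SE 0.49, adjusted p = 0.149) came next. For Mcm2, Mcm4, Mcm6 and Mcm7 every PPTx sample lay above every control sample, as for 4.01% of all genes tested. The same held for Mcm5, Cdc6 and Gins2, which reached the test through the PPTx samples and are not counted.

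Because PPTx samples held more positive cells, the same contrast was made in negative β-cells alone. Mcm6 was again the only member called, where 0.0286% of 10486 genes were called higher. The same 4 members had at least 10 UMIs in control cells alone, with log2 fold changes of 0.50 to 1.98 against a median of -0.10 over all genes, and the remaining 5 had 1 to 4 UMIs there and again reached the test through the PPTx samples. For Mcm2, Mcm4 and Mcm6 no PPTx sample overlapped a control sample and PPTx was higher, as for 3.55% of all genes tested, and the same held for Mcm5, Cdc6 and Gins2, which are not counted for the same reason. Scaling by library size alone moved the median over all genes to 0.14 and the 3 genes called higher and 4 lower to 16 and 3, and Mcm2, Mcm4, Mcm6 and Mcm7 stayed positive under each of the 4 scalings run.

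Mcm6 was at 5.04, 2.15, 9.80 and 2.37 CPM in negative β-cells of control samples and at 26.5, 36.2, 23.9 and 18.9 CPM in those of PPTx samples. The lowest PPTx sample was thus above the highest control sample. Its log2 fold change was 1.98 (SE 0.39, adjusted p = 0.0441). Leaving out control replicates 1, 2 or 4 or PPTx replicates 1 or 2 raised the adjusted p to between 0.130 and 0.223, with log2 fold changes of 1.64 to 1.97. The call stood without PPTx replicate 3 or 4 (adjusted p = 0.0471 and 0.0316) and without control replicate 3, where the log2 fold change was 3.04 (adjusted p = 0.00711). It was lost with all deposited cells (adjusted p = 0.0709) and with the replicate number as a block (adjusted p = 0.0844).

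Mcm5 was at 0, 0, 1.63 and 0 CPM in control and at 9.76, 16.8, 4.55 and 7.55 CPM in PPTx samples. Only control replicate 3 held any Mcm5, with 2 UMIs, and all PPTx samples held at least 4. The log2 fold change of Mcm5 was 3.32 (SE 0.78, adjusted p = 0.0982), and per UMI sequenced the level was 14.4 times higher with a counting interval of 3.71 to 124. Mcm5 was called without PPTx replicate 3 (adjusted p = 0.049996). Its fitted value ran from 2.85 without control replicate 4 to 5.78 without control replicate 3, where no control UMI was left, so the latter is no bound. Mcm4 was at 5.04, 2.15, 3.27 and 4.73 CPM in control and at 18.1, 15.1, 7.96 and 7.55 CPM in PPTx samples. Its log2 fold change was 1.49 (SE 0.47, adjusted p = 0.301). Mcm2 was at 0, 8.59, 7.35 and 3.55 CPM in control and at 13.9, 15.1, 12.5 and 11.3 CPM in PPTx samples. The PPTx samples lay close together, and the log2 fold change was 0.95 (SE 0.44, adjusted p = 0.515).

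Mcm7 and Mcm3 overlapped between the groups. Mcm7 was at 10.1, 8.59, 7.35 and 4.73 CPM in control and at 23.7, 9.26, 2.27 and 15.1 CPM in PPTx samples, so that PPTx replicate 3 was the lowest of all. Its log2 fold change was 0.50 (SE 0.52, adjusted p = 0.820), which turned to -0.043 without PPTx replicate 1. Mcm3 was at 3.27 CPM in control replicate 3 and at 0 in the other control samples, and at 2.79, 8.42, 1.14 and 7.55 CPM in PPTx samples (log2 fold change 1.47, SE 0.84, adjusted p = 0.608). The fitted value of Mcm3 ran from 0.96 without PPTx replicate 2 to 4.79 without control replicate 3, where no control UMI was left, so the latter is no bound.

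The loading and assembly factors were near the limit of detection. Cdc6 was at 0.816 CPM in control replicate 3, 0 in the other control samples, and at 4.18, 3.37, 1.14 and 1.89 CPM in PPTx samples, which are 1 and 9 UMIs in all. Gins2 was at 0.816 CPM in the same control sample and 0 in the rest, and at 5.58, 5.05, 1.14 and 1.89 CPM in PPTx samples. Cdt1 was at 0, 2.15, 2.45 and 0 CPM in control and at 12.6, 5.89, 1.14 and 1.89 CPM in PPTx samples. Their log2 fold changes were 2.24 (SE 1.08), 2.62 (SE 1.05) and 1.55 (SE 0.81), with adjusted p of 0.548, 0.449 and 0.592. Mcm10 had 2 UMIs, both in PPTx replicate 2.

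**Figure D3:**
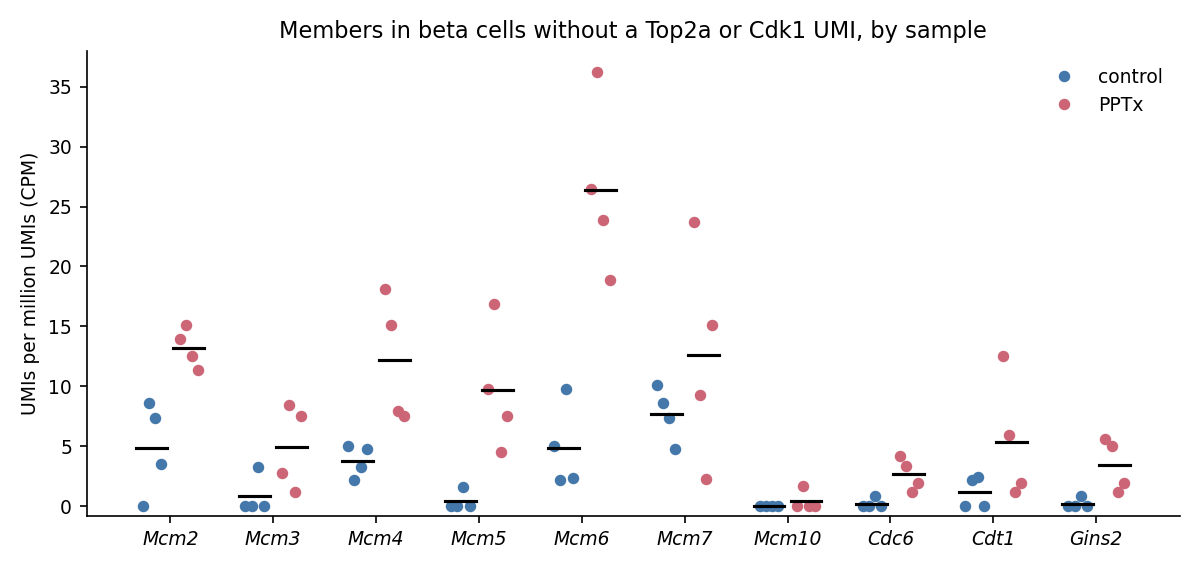
Level of each member in negative β-cells (y axis, CPM) by gene (x axis), with 1 point per sample (4 control, 4 PPTx) and a line at the group mean. The 4 PPTx points of Mcm6 lie between 18.9 and 36.2 CPM, above the control points of 2.15 to 9.80 CPM, while those of Mcm7 overlap.

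Depth and other cells moved with the groups in part. The median negative β-cell had 7211 UMIs in control and 5574 UMIs in PPTx samples, and after thinning to 2000 UMIs the log2 fold change of Mcm6 was 2.14 (SE 0.66, adjusted p = 0.378). The immune list was at 0 to 40.0 CPM in control and 0 to 160 CPM in PPTx samples, the fibroblast list at 0 to 41.4 CPM and 1.14 to 281 CPM, the acinar list at 2.15 to 45.3 CPM and 7.96 to 111 CPM, the ductal list at 153 to 203 CPM and 151 to 308 CPM, and Ppy with Pyy at 295 to 5641 CPM and 3567 to 7820 CPM, while Pecam1, Cdh5 and Flt1 were at 0. Without the 11 negative β-cells that carried at least 5 immune, endothelial or fibroblast UMIs, Mcm6 changed by 1.98 (SE 0.39, adjusted p = 0.0187).

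None of the further licensing, fork or E2F genes was called for PPTx against control in negative β-cells, and of the G2/M list 1 gene had enough UMIs to be tested and was not called. Among genes with at least 10 UMIs in control cells alone, 8 of 10 further licensing genes had a positive log2 fold change, with a median of 0.28, as had 5 of 6 fork genes, with a median of 0.55, and 1 of 5 E2F genes, with a median of -0.080. The largest over all tested list genes, each with 1 or 2 control UMIs and tested through the PPTx cells, were Cdc7 (2.87, SE 1.09, adjusted p = 0.42), Hells (2.52, SE 1.09, adjusted p = 0.473) and Rfc4 (2.39, SE 0.84, adjusted p = 0.380). E2f1 was at 11.8 ± 5.58 CPM (SD, n = 4) in control and 19.8 ± 7.51 CPM (SD, n = 4) in PPTx samples.

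The member UMIs of negative β-cells were concentrated in few cells. A member UMI was present in 39 of 366 control cells (10.7%, 95% exact binomial interval 7.69 to 14.3%) and in 141 of 543 PPTx cells (26.0%, 22.3 to 29.9%), where the intervals cover counting error of the pooled cells and not the spread between samples. By sample the share was 7.41%, 14.3%, 12.6% and 7.76% in control and 29.8%, 30.2%, 25.3% and 16.7% in PPTx, without overlap. In cells led by another hormone it was present in 30 of 144 control (20.8%) and 26 of 131 PPTx cells (19.8%) at median depths of 4039 and 4650 UMIs. Thinned to 2000 UMIs the shares were 3.83% and 14.5% in negative β-cells and 10.4% and 10.7% in the other cells. The share in control β-cells was thus below that in the other cells at both depths. The part of free transcripts in these shares was not tested, so single UMIs are not read as expression.

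Cells with at least 3 member UMIs were 0, 0, 5 and 1 of the negative β-cells in control samples and 8, 18, 4 and 4 in PPTx samples. These were 40 of 909 cells and carried 56.0% of the member UMIs of the class. The number 3 is a point on a range, with 29 cells at 2 UMIs and 30 cells at 3 to 5. In cells led by another hormone 3 of 275 reached it. The 40 cells had no Top2a or Cdk1 UMI by definition, but fork genes were at 637 CPM in them against 86.5 CPM in the 729 negative β-cells without member UMIs, further licensing genes at 418 against 130 CPM, and the G2/M list at 91.4 against 4.63 CPM. A G2/M UMI was present in 9 of the 40 cells. Their median depth was 8473 UMIs, against 5799 UMIs in the cells without member UMIs. In the negative β-cells below 3 member UMIs, the members were at 20.1, 23.6, 12.0 and 10.8 CPM in control and at 37.1, 57.6, 30.2 and 41.2 CPM in PPTx samples. Since this split uses the member UMIs themselves, these levels are given as a description.

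**Figure D4:**
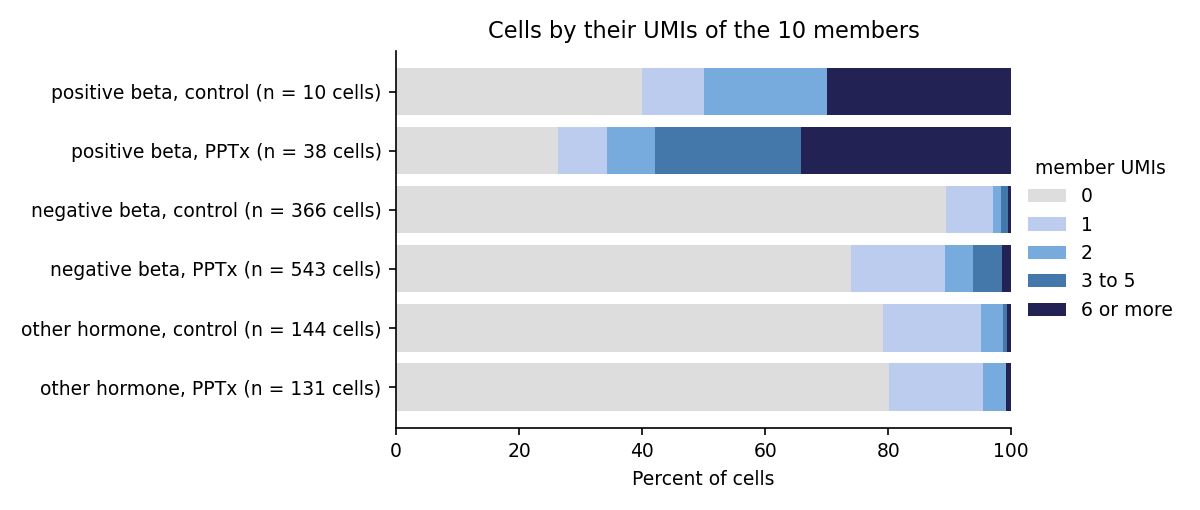
Percent of cells (x axis) by their number of member UMIs (shades) for each class and group (y axis, with the number of cells). Cells with 6 or more UMIs make up 3 of the 10 control and 13 of the 38 PPTx positive β-cells, 0.546% and 1.47% of the negative β-cells, and 0.694% and 0.763% of the cells led by another hormone.

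The third comparison set negative β-cells against the cells led by another hormone, within samples. No member was called, where 18.9% of 11010 genes were called in either direction (867 higher and 1217 lower, 662 and 1655 with library size alone, 1416 and 738 with TMM over all tested genes), and at an unadjusted p under 0.05 no member passed either. Mcm7 was at 10.1 ± 6.66 CPM (SD, n = 8) in negative β-cells and 18.8 ± 16.7 CPM (SD, n = 8) in the other cells, a log2 fold change of -0.80 (SE 0.41, adjusted p = 0.187) and lower in β-cells in 6 of 8 samples, as were 25.1% of all genes tested in at least 6. Mcm2 was at 9.05 ± 5.26 and 4.37 ± 4.07 CPM (SD, n = 8), a log2 fold change of 1.01 (SE 0.57, adjusted p = 0.238). Mcm6 was at 15.6 ± 12.7 and 14.7 ± 12.0 CPM (SD, n = 8), with a log2 fold change of 0.19 (SE 0.41, adjusted p = 0.806), and was higher in β-cells in 6 of 8 samples, as were 19.3% of all genes tested in at least 6. Cdc6 and Mcm10 had no UMI among the 1341787 UMIs of the other cells, which allows a level of up to 2.24 CPM from 3 counts. Of the list genes, E2f1 was called higher (1.56, SE 0.51, adjusted p = 0.0194) and Dut, which cleanses the nucleotide pool of dUTP, lower (-0.60, SE 0.18, adjusted p = 0.0115) in negative β-cells. E2f1 had 91 of its 98 UMIs in negative β-cells and reached the test through them.

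In cells led by another hormone PPTx was compared with control for 3 members with enough UMIs. None was called, where 0.158% of 8227 genes were called, and none passed an unadjusted p of 0.05. Mcm6 was at 0, 35.5, 6.47 and 14.2 CPM in control and at 6.17, 28.9, 11.3 and 15.5 CPM in PPTx samples (log2 fold change 0.50, SE 0.70, adjusted p = 0.919). Mcm7 was at 0, 53.3, 22.6 and 9.44 CPM and at 12.3, 10.8, 11.3 and 31.0 CPM (-0.52, SE 0.67, adjusted p = 0.918). Mcm4 was at 37.3, 17.8, 6.47 and 4.72 CPM and at 12.3, 21.6, 0 and 0 CPM (0.49, SE 0.84, adjusted p = 0.943), while its difference of mean CPM was -8.05, so that its direction depends on the measure. All 3 overlapped between the groups, as 0 of the 10 members had every PPTx sample above every control sample (1.02% of all genes tested), and each changed sign under at least 1 alternative. The class is mixed, with Ppy leading 2, 9, 9 and 14 cells in control and 18, 45, 21 and 19 cells in PPTx samples, and the part of this difference in the result was not tested.

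Whether the effect of PPTx differed between negative β-cells and the other cells was tested as an interaction. No member was called, where 0.0182% of 11010 genes were called. Gins2 (4.56, SE 1.96, adjusted p = 0.871) was the only member with an unadjusted p under 0.05. Gins2 had 1 UMI in control negative β-cells and 5 in the other control cells, and reached the test through the PPTx samples. Mcm6 differed by 1.61 (SE 0.83, adjusted p = 0.988), which turned to -3.24 (SE 1.87) in cells thinned to 2000 UMIs. After thinning 0 of 144 control cells led by another hormone held Mcm6, so the latter is no bound. Summed over members, PPTx and control stood at 90.9 ± 31.1 and 24.0 ± 9.16 CPM (SD, n = 4) in negative β-cells and at 52.0 ± 28.2 and 66.7 ± 39.3 CPM (SD, n = 4) in the other cells.

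**Figure D5:**
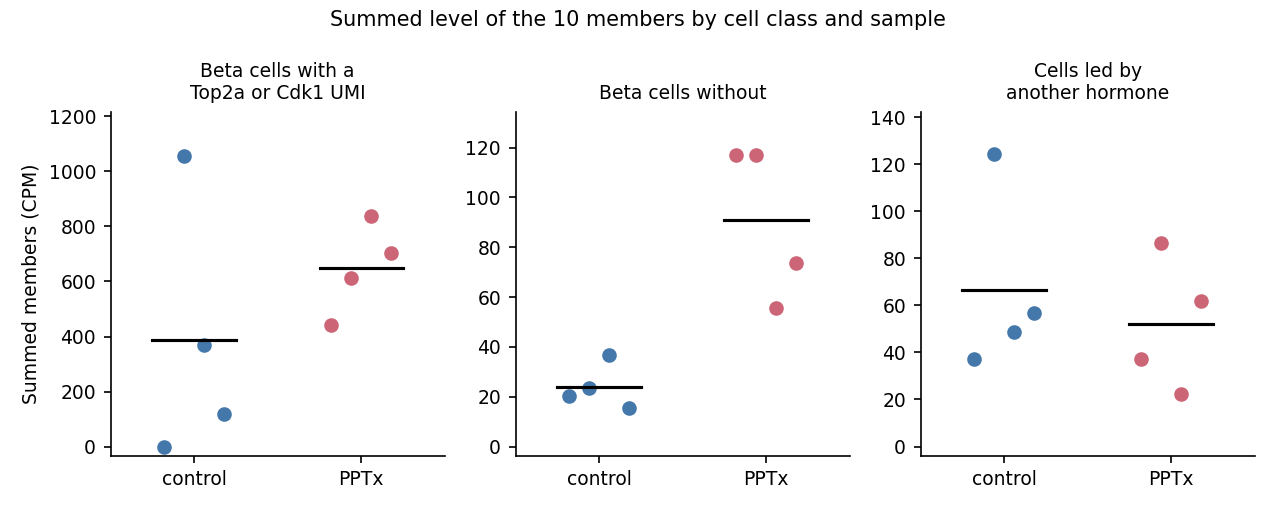
Summed level of the 10 members (y axis, CPM, a scale of its own in each panel) in control and PPTx samples (x axis) for positive β-cells, negative β-cells and cells led by another hormone, with 1 point per sample and a line at the group mean. The groups lie apart in negative β-cells, at 15.4 to 36.7 and 55.7 to 117 CPM, and overlap in the other classes.

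Within positive β-cells the contrast of PPTx and control rested on 38 and 10 cells. Of 8 tested members none was called, where 0.163% of 3678 genes were called. Mcm2 had 22 UMIs in PPTx and 0 in control cells, so its level was at least 2.13-fold higher when 3 counts over the control class are taken as the floor. Each of the 8 had under 10 UMIs in the control cells and reached the test through the PPTx cells. Mcm2 was the only member with no overlap between the groups, as for 4.59% of the genes tested. In the control samples 3 counts correspond to 1455, 452, 65.4 and 119 CPM, against 29.6 to 127 CPM of Mcm2 in PPTx samples. At these depths 0 UMIs in a control sample do not show a lower level, so the pattern of Mcm2 is not counted. Mcm6 was 2.49 times higher per UMI sequenced with a counting interval of 0.990 to 8.07 (adjusted p = 0.888). Mcm3 was at 118 ± 223 CPM (SD, n = 4) in control and 112 ± 80.6 CPM (SD, n = 4) in PPTx samples, and Mcm5 at 107 ± 134 and 49.2 ± 44.9 CPM (SD, n = 4). The control values rest on 10 cells, and the groups overlapped for both.

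The genes whose levels followed the summed members most closely over the 24 sums of 3 classes and 8 samples, among 8107 genes with at least 50 UMIs, were Nelfe, Dek, Zfp367, Spc24, Rfc2, Rrm1, Tmem109 and Pcna. Their Spearman correlations ran from 0.88 for Nelfe to 0.82 for Pcna. Rfc2 and Pcna belong to the clamp and its loader at the fork, and Rrm1 is a subunit of ribonucleotide reductase. The sums share libraries and depths, and the correlations are given as a description.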

How the data were processed

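Islet cells of 4 control and 4 PPTx samples were analysed. The deposited tables hold raw UMI counts per gene and cell, made by the authors with Cell Ranger, per the methods, on mm10, per the labels. How cells were selected before deposit and whether counting used strand are not given in the sources used here. Cells were filtered by the limits stated for the study, 100 to 3000 genes and 100 to 20000 UMIs, and counts were summed per sample and class. Sums were tested with edgeR 4.0.16 (R 4.3.3, quasi-likelihood) on genes with at least 10 UMIs in a comparison, with Benjamini-Hochberg adjustment over all of them. TMM factors were taken from the 200 genes with the highest totals, a setting adopted after tests on simulated data, and comparisons of classes had the sample as a block. DESeq2 1.42.0 was an alternative. Shares and single values were compared by two-sided exact permutation tests. Depth was 227439 to 1580152 UMIs per sample, and 95% intervals cover counting error only. Further list genes were named where called, up to 6 with the largest change per list and comparison, and the 3 largest uncalled ones in negative β-cells were picked after their values were seen. The members and lists were chosen with earlier results of these data known.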

Additional observations from a re-analysis of the deposited data

Results flagged for a closer look

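Among 57 sets of 4 samples of a group that were checked, 16 had a sample farther from the others than Dixon's 95% limit allows, where chance gives about 1 in 20. In most of these sets the other samples were at 0, so 1 or a few UMIs set a sample apart. In negative β-cells of control mice replicate 3, the most deeply sequenced sample, stood alone above 0 for Mcm3 (3.27 CPM), Mcm5 (1.63 CPM), Cdc6 (0.816 CPM) and Gins2 (0.816 CPM). In positive β-cells of control mice the single cell of replicate 2 stood at 452 CPM for Mcm3 and 151 CPM for Gins2, and replicate 3 at 109 CPM for Mcm7 and 21.8 CPM for Cdc6. Mcm10 was seen in PPTx replicate 2 alone, at 1.68 CPM in negative and 10.6 CPM in positive β-cells. In cells led by another hormone the samples apart were control replicate 4 for Mcm3 (4.72 CPM), control replicate 3 for Mcm5 (6.47 CPM), PPTx replicate 2 for Mcm3 (3.61 CPM), Gins2 (3.61 CPM) and Cdt1 (7.22 CPM), and PPTx replicate 4 for Mcm7 (31.0 CPM).

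The difference between the PPTx effect in negative β-cells and that in cells led by another hormone was also compared on CPM by permuting PPTx and control over samples. It was 10.4 CPM for Mcm2 and 8.88 CPM for Gins2, each with a two-sided exact permutation p of 0.0286, the smallest that 4 against 4 samples allow. These p-values are unadjusted over the 10 members, edgeR called none of the members in the same contrast, and 3.26% of the 11010 genes tested reached that p with PPTx higher. The value of 2.44 CPM for Cdc6 also reached it, but Cdc6 had no UMI in the other cells, so this is its difference in negative β-cells alone and no test between the classes. Mcm2 and Gins2 had 7 and 6 UMIs in the other cells. Gins2 had 1 UMI in control negative β-cells and reached the test through the PPTx samples. The Gins2 value includes a change of -5.67 CPM in the other cells, from 5 UMIs in control to 1 in PPTx, and is no support.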

How the results depend on the processing

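In positive against negative β-cells Mcm3 and Mcm6 were called in every edgeR and DESeq2 alternative run, but Mcm6 did not pass the exact test on CPM (exact permutation p = 0.0625). Thinning to 2000 UMIs left 76 genes and 2 members called, with log2 fold changes of 1.70 for Mcm2 (adjusted p = 0.891), 2.56 for Mcm4 (0.469), 1.73 for Mcm5 (0.899) and 2.88 for Mcm7 (0.0868), so that those of Mcm4 and Mcm7 stayed near 2.69 and 3.17 on fewer UMIs. TMM over all tested genes, added after the data were seen, gave 854 genes, 215 higher and 639 lower, against 339 and 27, and moved the median of all genes to -0.60. Mcm2 was not called with at least 2 UMIs required of a positive cell (1.58, adjusted p = 0.398). Exact tests on CPM, unadjusted, passed 4 members. Leaving out 1 sample gave 270 to 376 genes and 6 to 7 members.

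For PPTx against control in all β-cells, where edgeR called 11 genes, 3 genes were called after thinning, 6 with all deposited cells, 17 with filterByExpr, 38 without a filter, 21 with library size alone, 31 with DESeq2 and 17 without cells with non-endocrine markers. The members called were 0 after thinning and 2 with library size alone. By exact tests on CPM, unadjusted, 7 passed, with every PPTx sample above every control sample, as for 4.01% of all genes tested. Of these, Mcm5, Cdc6 and Gins2 reached the test through the PPTx samples and are not counted. In negative β-cells, where 7 genes were called, the same settings gave 2, 3, 17, 38, 19, 26 and 20 genes, and 13 with at least 2 UMIs required. No member was called there after thinning or with all deposited cells (Mcm6 adjusted p = 0.0709). Without a filter or with library size alone 2 were called, Mcm5 being the second (adjusted p = 0.0164 and 0.0404) on 2 control UMIs. By exact tests, unadjusted, 6 passed, with every PPTx sample above every control sample, as for 3.55% of all genes tested. Of these, Mcm5, Cdc6 and Gins2 reached the test through the PPTx samples and are not counted. DESeq2 gave no adjusted p for any member in either contrast, with an unadjusted p for Mcm6 of 9.71e-06 and 0.000106. Leaving out 1 sample gave 3 to 18 genes and 0 to 1 members in all β-cells, and 0 to 16 genes and 0 to 2 members in negative β-cells, with Mcm7 at -0.043 to 0.88. The difference in the share of positive β-cells was 3.48 to 5.14 points without 1 sample, 0.824 after thinning and 1.21 with at least 2 UMIs required.

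Between negative β-cells and cells led by another hormone thinning left 933 genes of 2084. Mcm4 was at 0.062 with TMM over all tested genes and ran from -0.38 to 0.035 without 1 sample, Mcm6 from -0.051 to 0.51 and Gins2 from -1.33 to 0.0097. In the latter cells PPTx against control gave 6 genes after thinning, 36 without a filter, 3 with DESeq2 and 1 to 20 without 1 sample. Mcm4 was at -0.027 with DESeq2, Mcm7 at 0.053 without the 3 cells with Top2a or Cdk1, and without 1 sample Mcm6 ran from -0.23 to 1.09 and Mcm7 from -0.90 to 0.016. The interaction gave 0 genes with all deposited cells, 5 with library size alone, 1 with DESeq2, 1 with TMM over all tested genes and 0 to 2 without 1 sample. By exact tests, unadjusted, 3 members passed. Among them were Cdc6, which had no UMI in the other cells, and Gins2, which reached the test through the PPTx samples. Mcm6 was at -3.24 after thinning and Cdt1 at 0.77 with DESeq2, and without 1 sample Mcm3 ran from -1.74 to 4.79 and Cdt1 from -2.89 to 1.59. These are no bounds. Mcm6 after thinning, and Cdt1 at any depth, had 0 UMIs in control cells led by another hormone. Both ends of the Mcm3 range left a control class without an Mcm3 UMI. In positive β-cells PPTx against control gave 2 genes with filterByExpr, 2 with DESeq2 and 3 to 10 without 1 sample. By exact tests, unadjusted, 1 member passed, Mcm2, which reached the test through the PPTx cells and is not counted. Gins2 was at 0.16 with library size alone, 0.084 with DESeq2 and 0.57 with TMM over all tested genes, and Mcm3 at -0.53 with at least 2 UMIs required and from -0.18 to 2.28 without 1 sample. The causes were not tested.

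Samples with the same replicate number are not stated to share mice or a day. Correlations of their deviations in negative β-cells were 0.078, 0.021, 0.043 and 0.195. For control replicates 1, 3 and 4 the PPTx sample of the same number correlated best, and for control replicate 2 it was PPTx replicate 3. Whether the numbers pair the samples is not settled by these values, and the main tests had no such block. With the replicate block the genes called were 17 in all β-cells, 2 in cells led by another hormone and 3 in positive β-cells. In negative β-cells no member was called with the replicate block (Mcm6 1.93, adjusted p = 0.0844), Mcm4 was at -0.50 in cells led by another hormone, and the share of positive β-cells differed by 4.17 points (exact permutation p = 0.125). Without the block of samples, positive against negative β-cells gave Cdt1 an adjusted p of 0.0150.

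Depth limits these values, since most members had under 100 UMIs in all.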
